A study of Mus musculus with 14 samples.

Results

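The genes described here encode 10 transporters that carry amino acids and small peptides across the cell membrane, out of 55889 genes listed without dextran sulfate sodium (DSS) and 54721 listed after it. All 10 were found by gene symbol in both tables. The group was chosen by a measured value, since *Slc7a9* read higher in the knockout than in WT after DSS with no overlap between the genotypes, and the other 9 genes were added for their shared function. The mice were C57BL/6N. They were either WT or carried a germline deletion of the *miR-29ab1* locus (miR-29ab1-/-, written KO), which takes the locus out of every cell type and not of the epithelium alone. WT and KO groups held 4 mice each without DSS, and 3 mice each after 3 days of 3.5% DSS in the drinking water, a detergent-like polymer that injures the gut lining and is used to bring on colitis. The study's methods state littermates matched for age and sex, with both sexes used, and no label gives the litter, age or sex of a single mouse.

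Epithelial cells take up amino acids through exchangers made of a light chain, which forms the pore, and a heavy chain, which brings the pore to the cell surface. *Slc7a9* and *Slc3a1* form the cystine and basic amino acid exchanger of the apical membrane, while *Slc3a2* pairs with several light chains, among them *Slc7a5*, *Slc7a8* and *Slc7a11*. Other carriers bring in neutral amino acids together with sodium (*Slc6a19*, *Slc6a20a*, *Slc1a5*), and *Slc15a1* brings in di- and tripeptides together with protons.

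Libraries held between 14231157 and 23153149 counted reads. The deleted locus was checked through *Lncpint* and *Gm27019*, which lie beside it. *Lncpint* had 7 to 23 reads in WT and 1386 to 2889 reads in KO without DSS, and 6 to 14 against 706 to 1144 reads after DSS. *Gm27019* had 0 to 2 reads in WT and 151 to 411 reads in KO over both tables, so each of the 14 libraries matched its genotype label. The labels name small intestinal crypts as the tissue, whereas the study describes colon. Colon genes were high in WT without DSS (*Car1* at 3112 CPM and *Slc26a3* at 325 CPM). Of the small intestine genes, *Apoa4* (0.0247 CPM), *Lct* (0.154 CPM) and *Fabp1* (0.192 CPM) were close to 0 there, although *Fabp2* stood at 198 CPM and was not the only one with reads. Without DSS, 7 of the 14 small intestine markers and all 9 colon markers had enough reads to be tested. Summed in WT without DSS, the 14 small intestine markers held 323 to 473 CPM and the 9 colon markers 3396 to 5431 CPM. Levels are given as CPM, counts scaled to library size on 1 scaling over all 14 mice. The mice after DSS are numbered here as the columns of their table. In whole tissue, fewer cells of a type and less RNA per cell cannot be told apart. Mice with and without DSS came in separate tables with separate numbering, so DSS and the experiment cannot be told apart. *Muc2*, the main mucin of goblet cells, stood at 85.6 ± 52.3 CPM (SD, n = 4) in WT without DSS. In WT after DSS it stood at 8173 ± 1361 CPM (n = 3), with the same gene model in both tables. The 6 goblet cell markers summed to 20380 to 50617 CPM in WT without DSS and to 26559 to 38776 CPM after it. Of these 6, 3 were higher and 2 were lower with DSS in WT by adjusted p in edgeR, so *Muc2* does not stand for the list.

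*Mir29a* and *Mir29b-1* are the genes of the deleted locus, and their mature products, miR-29a-3p and miR-29b-3p, are given here. Both are RefSeq sequences on the minus strand of GRCm38.p6, at chr6:31062673-31062694 and chr6:31063025-31063047, and capitals mark the seed, bases 2 to 8, which is the same in both.
miR-29a-3p: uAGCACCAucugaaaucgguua
miR-29b-3p: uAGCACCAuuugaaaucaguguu
The seed pairs with TGGTGCT. Among 21020 genes with an annotated 3' UTR in GENCODE vM21, 2905 (13.8%) held those letters in at least 1 transcript, and so did 2 of the 10 transporters, *Slc7a5* and *Slc7a11*. Their sites are shown with the match in capitals, starting at base 1500 of a UTR of 1890 bases and at base 4174 of a UTR of 7364 bases.
Slc7a5: gcagggattcaTGGTGCTgacccaggctct
Slc7a11: gcactctgtgtTGGTGCTgatagaatgcag
A match is a stretch of letters and not a measured site. *Slc7a9* has a longest annotated 3' UTR of 141 bases without the match.

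*Slc7a9* (ENSMUSG00000030492, GRCm38 chr7:35448796-35466036, plus strand), the light chain of the cystine exchanger, was about 2-fold higher in KO than in WT after DSS. The WT mice had 111, 110 and 110 reads (5.25, 5.18 and 5.87 CPM), and the KO mice had 176, 190 and 266 reads (10.2, 11.4 and 12.5 CPM). The lowest KO mouse lay well above the highest WT mouse. The log2 fold change was 1.06 (SE 0.18), a fold of 2.09, given as a description because these values chose the gene, and leaving out each mouse in turn gave 0.99 to 1.13. Without DSS the levels were lower and the genotypes overlapped, with 2.47, 1.60, 3.36 and 4.79 CPM in WT and 5.02, 3.88, 3.78 and 7.01 CPM in KO. The KO mean was 1.61 times the WT mean there (log2 fold change 0.69, SE 0.34), and the difference missed the threshold in edgeR's quasi-likelihood test (unadjusted p = 0.067, Benjamini-Hochberg adjusted p = 1). That p lay at 0.017 without WT mouse 4, at 0.030 with no filter on low counts and at 0.028 with all 14 mice in 1 model, each under the cutoff of 0.05 with no adjustment. As a description, *Slc7a9* stood 0.83 (SE 0.30) higher after DSS than without it in WT and 1.21 (SE 0.29) higher in KO on the log2 scale.

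*Slc3a1* (ENSMUSG00000024131, chr17:85028376-85064236, plus strand), the heavy chain that carries *Slc7a9* to the membrane, was nearly level between genotypes after DSS. There the WT mice had 21.1, 21.8 and 27.2 CPM and the KO mice 20.9, 24.1 and 25.9 CPM, so the genotypes overlapped (log2 fold change 0.012, SE 0.14, an interval of 2 SE from -0.27 to 0.30). Without DSS it varied widely between mice of 1 genotype, at 7.96, 15, 11.3 and 29.4 CPM in WT and 9.16, 14.8, 15 and 35.5 CPM in KO. Mouse 4 was the highest in both genotypes. The genotype difference there was 0.24 (SE 0.51) and turned to -0.29 without KO mouse 4, and neither DSS comparison passed the test (log2 fold change 0.55 in WT and 0.35 in KO, edgeR adjusted p = 0.37 and 0.56). The gene model of *Slc3a1* spans 2271 bases in the table without DSS and 2307 bases in the table after it, while the other 9 genes have the same model in both.

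**Figure D1:**
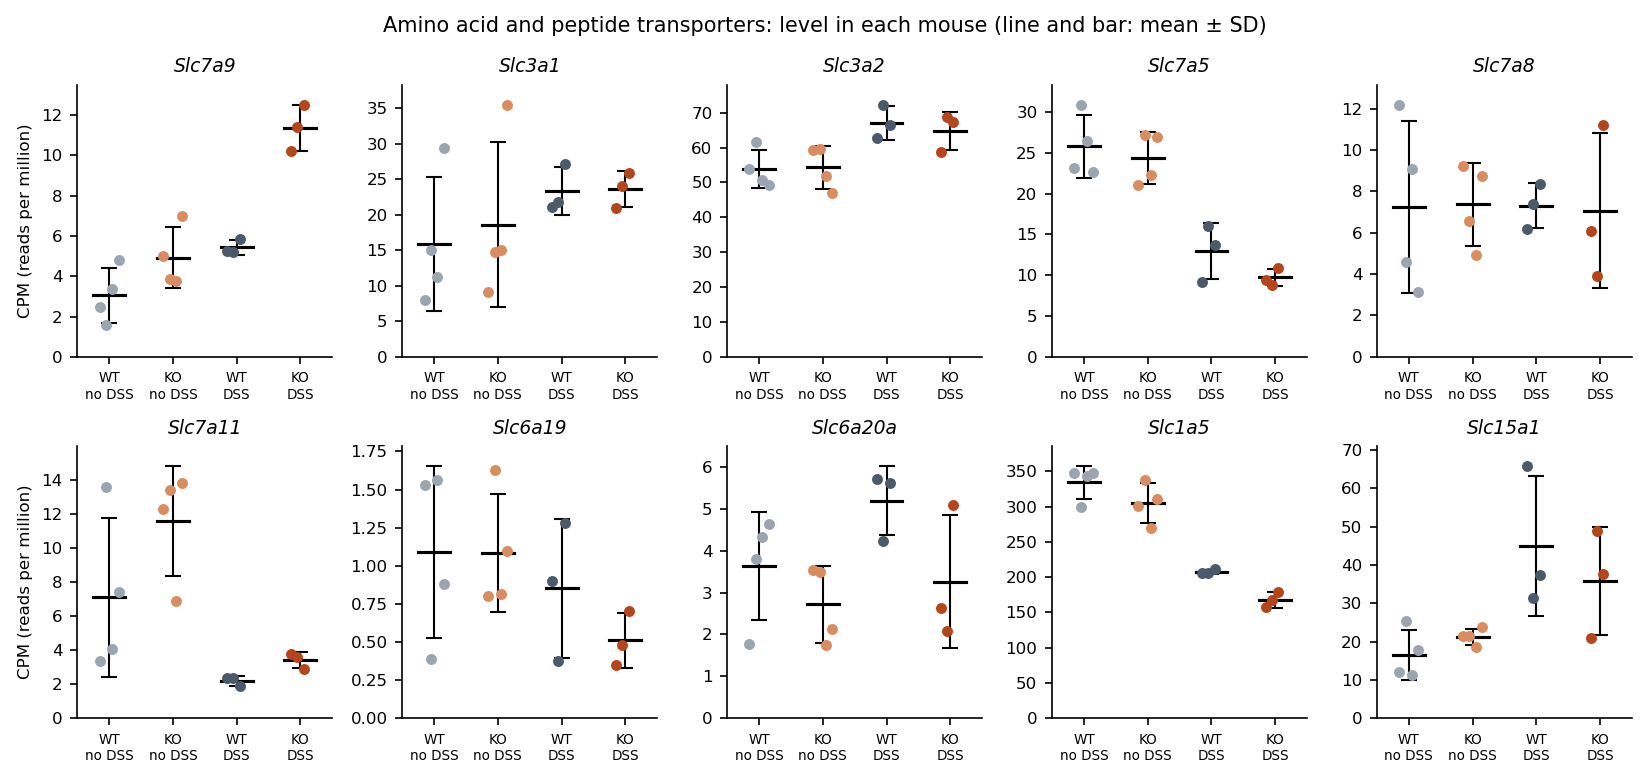
Each panel plots the level of a transporter in CPM (linear axis from 0) in each mouse (points) of the 4 groups, with the mean and SD as lines and bars; n is 4 per genotype without DSS and 3 after it. After DSS the KO points of *Slc7a9* (10.2 to 12.5 CPM) sit above every WT point (5.18 to 5.87 CPM), while those of *Slc3a1* overlap.

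*Slc3a2* (ENSMUSG00000010095, chr19:8706882-8723369, minus strand), the heavy chain shared by the other light chains, had a spread (SD) of 7.19% to 11.3% of the mean in each group. WT mice had 53.8, 61.5, 50.6 and 49.4 CPM and KO mice 59.4, 59.5, 51.8 and 46.9 CPM without DSS. After DSS these were 62.7, 72.3 and 66.4 CPM in WT and 58.6, 68.7 and 67.2 CPM in KO. *Slc3a2* rose after DSS in WT by 0.32 (SE 0.11) on the log2 scale (edgeR adjusted p = 0.030), a call that was lost among protein-coding genes alone (adjusted p = 0.062), in the 7 WT mice alone (adjusted p = 0.058) and without several single mice. In KO the change was 0.25 (SE 0.11, adjusted p = 0.070), and leaving out KO mouse 1 after DSS brought it to 0.32 (adjusted p = 0.048). The genotypes differed by 0.016 (SE 0.11) without DSS and -0.055 (SE 0.10) after it.

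*Slc7a5* (ENSMUSG00000040010, chr8:121881150-121907694, minus strand), the light chain for large neutral amino acids such as leucine, fell after DSS in both genotypes. Its levels without DSS were 23.1, 30.9, 26.5 and 22.6 CPM in WT and 21.0, 27.2, 22.3 and 26.9 CPM in KO. After DSS they were 9.17, 16.0 and 13.7 CPM in WT and 9.43, 8.85 and 10.9 CPM in KO, every mouse below every mouse without DSS. On the log2 scale the change was -0.99 (SE 0.18) in WT and -1.32 (SE 0.18) in KO (edgeR adjusted p = 0.00063 and 4.8e-05). Between genotypes it was -0.079 (SE 0.13, unadjusted p = 0.56) without DSS and, as a description, -0.42 (SE 0.22) after it with overlapping mice.

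*Slc7a8* (ENSMUSG00000022180, chr14:54722209-54781946, minus strand), a light chain that exchanges neutral amino acids at the basolateral side, showed wide spread and no call. WT mice had 12.2, 4.58, 9.09 and 3.12 CPM and KO mice 9.23, 6.57, 4.94 and 8.76 CPM without DSS. WT mice had 6.19, 7.39 and 8.38 CPM and KO mice 6.11, 3.89 and 11.2 CPM after DSS. All group means lay between 7.07 and 7.38 CPM, and the DSS log2 fold changes of 0.014 (WT) and -0.054 (KO) had intervals of 2 SE from -0.84 to 0.87 and from -0.92 to 0.81, so a change of 1.5-fold in either direction was within them.

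*Slc7a11* (ENSMUSG00000027737, chr3:49892526-50443614, minus strand), the light chain that exchanges cystine for glutamate and feeds glutathione synthesis, fell after DSS to 0.31 of its level in WT and 0.30 in KO. Without DSS the WT mice had 3.36, 13.6, 4.07 and 7.39 CPM and the KO mice 12.3, 13.4, 6.86 and 13.8 CPM. After DSS the WT mice had 2.36, 2.35 and 1.87 CPM (35 to 50 reads) and the KO mice 3.78, 3.59 and 2.92 CPM (60 to 65 reads). These shifts were -1.69 (SE 0.42) in WT and -1.76 (SE 0.41) in KO on the log2 scale (edgeR adjusted p = 0.0064 and 0.0033). KO exceeded WT without overlap after DSS (log2 fold change 0.63, SE 0.27, a description). Without DSS the difference was 0.71 (SE 0.43), overlapped and missed the threshold (unadjusted p = 0.13). Without WT mouse 2, at 13.6 CPM, the log2 fold change was 1.23 (unadjusted p = 0.0037), and the genotypes still overlapped.

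The promoter of *Slc7a11* is shown because it alone among the 9 RefSeq promoters found for 8 of the 10 genes held the C/EBP-ATF response element, searched as TGATGNAA on both strands. No promoter was found for *Slc7a5* or *Slc1a5*, so these genes were not searched. The *Slc7a11* promoter held 2 matches, in capitals, 66 bases before the start on the gene's strand and 47 bases before it on the other strand. The same letters occur in 1304 of 32851 promoters of this length (3.97%). The core of the antioxidant response element (TGACNNNGC) occurred in 12.4% of promoters and in none of these 9. The window is GRCm38.p6 chr3:50443564-50443863, minus strand, written along the gene.
Slc7a11 promoter: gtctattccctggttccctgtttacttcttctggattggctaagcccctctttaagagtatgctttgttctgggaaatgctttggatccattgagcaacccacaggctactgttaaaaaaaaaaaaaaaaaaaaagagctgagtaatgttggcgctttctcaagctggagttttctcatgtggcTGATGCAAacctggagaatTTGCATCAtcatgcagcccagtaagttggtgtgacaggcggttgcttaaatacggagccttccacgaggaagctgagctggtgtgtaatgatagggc
A match does not show that a factor binds there.

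*Slc1a5* (ENSMUSG00000001918, chr7:16781340-16798274, plus strand), the sodium-coupled glutamine carrier, was the most abundant of the 10 genes per length in every group and fell after DSS. WT mice had 347, 300, 343 and 347 CPM and KO mice 301, 338, 270 and 310 CPM without DSS. After DSS the WT mice had 206, 206 and 211 CPM and the KO mice 157, 167 and 179 CPM. With DSS its log2 fold change was -0.68 (SE 0.10) in WT and -0.86 (SE 0.10) in KO (edgeR adjusted p = 0.00012 and 1.1e-05). After DSS every KO mouse lay below every WT mouse (log2 fold change -0.31, SE 0.092, a fold of 0.80, given as a description). The overlapping difference without DSS was -0.13 (SE 0.10, unadjusted p = 0.22).

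*Slc6a20a* and *Slc6a19*, sodium-coupled carriers of proline-like and of neutral amino acids that are best known from the small intestine and kidney, were low. *Slc6a20a* (ENSMUSG00000036814, chr9:123634770-123678885, minus strand) had 1.78, 3.81, 4.32 and 4.63 CPM in WT and 3.53, 3.48, 1.74 and 2.14 CPM in KO without DSS. After DSS it had 5.72, 4.24 and 5.61 CPM in WT and 2.62, 2.09 and 5.08 CPM in KO. Its KO minus WT log2 fold change was -0.41 (SE 0.34, unadjusted p = 0.25) without DSS and, as a description, -0.66 (SE 0.35) after it, and KO mouse 3 after DSS was the one that overlapped WT. *Slc6a19* (ENSMUSG00000021565, chr13:73679745-73704865, minus strand) had 6 to 31 reads per mouse and group means of 0.511 to 1.09 CPM. Its log2 fold change with DSS was -0.37 (SE 0.50) in WT and -1.07 (SE 0.54) in KO, and neither passed the test (edgeR adjusted p = 0.59 and 0.12).

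*Slc15a1* (ENSMUSG00000025557, chr14:121459621-121505252, minus strand), the peptide carrier also called PEPT1, rose after DSS in WT. Without DSS the WT mice had 12, 25.3, 11.3 and 17.9 CPM and the KO mice 21.4, 21.5, 18.5 and 23.7 CPM. After DSS the WT mice had 65.8, 31.5 and 37.5 CPM, all above the WT mice without DSS, and the KO mice had 20.9, 48.8 and 37.7 CPM, of which the lowest lay among the KO mice without DSS. The log2 fold change with DSS was 1.43 (SE 0.34) in WT (edgeR adjusted p = 0.0055) and 0.75 (SE 0.34) in KO (adjusted p = 0.086). In KO the adjusted p was 0.039 in DESeq2, 0.043 in the 7 KO mice alone and 0.026 without KO mouse 1 after DSS. Whether WT and KO responded differently was not tested. Between genotypes *Slc15a1* overlapped both without DSS (0.36, SE 0.23, unadjusted p = 0.15) and after it (-0.33, SE 0.41, a description).

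Without DSS, none of the 10 transporters passed the test between genotypes. None reached an unadjusted p of 0.05 in edgeR or in DESeq2, a cutoff that 3.67% of the 15441 genes tested passed in edgeR, and none reached an adjusted p of 0.05, which 0.0194% of genes did. No member had genotypes without overlap, against 2.03% of genes tested. The median of the 10 log2 fold changes was 0.015, beside -0.0016 for all genes tested. After DSS, 3 of the 10 genes had genotypes without overlap, *Slc7a9* and *Slc7a11* higher and *Slc1a5* lower in KO, where 11.6% of the 14908 genes tested did. *Slc7a9* is among these 3 by the way it was chosen, so the count is a description. The median of the 10 was -0.18, beside -0.005 for all genes.

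**Figure D2:**
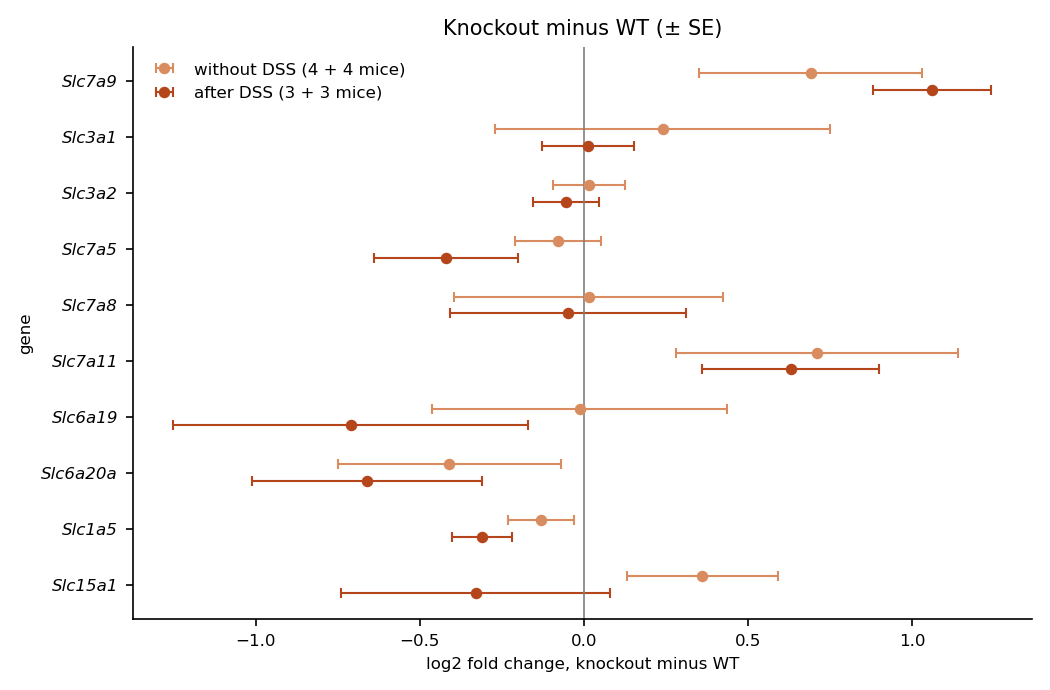
The log2 fold change of KO minus WT (horizontal axis, bars are SE) is drawn for each transporter without DSS (4 + 4 mice) and after DSS (3 + 3 mice). *Slc7a9* has the highest value after DSS (1.06), and *Slc6a19* (-0.71) and *Slc6a20a* (-0.66) have the lowest.

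Markers of other cell types were compared between KO and WT after DSS, and none of those in the 4 lists described here passed with adjustment in edgeR. All 13 T cell markers tested had positive log2 fold changes (median 0.67), 4 of them past an unadjusted p of 0.05, which 7.24% of all genes passed, and their summed level overlapped, as it ran from 55.2 to 109 CPM in WT and from 79.3 to 188 CPM in KO. All 9 myeloid markers tested were positive as well (median 0.57, 1 past that cutoff), summing to 90.8 to 112 CPM in WT and 111 to 164 CPM in KO. Of 5 B and plasma cell markers tested, 2 were positive and 1 was lower past that cutoff (median -1.31), with sums of 15.5 to 49.2 CPM in WT and 14.3 to 49.6 CPM in KO. The 13 epithelium markers, 12 of them positive and none past that cutoff, summed to 28706 to 31565 CPM in WT and 29938 to 36076 CPM in KO, with a median of 0.13. *Tnfrsf17* was at 0 in all KO mice after DSS, and no other marker of these 4 lists was at 0 in all mice of a genotype after DSS. The part of these cells in the genotype values of the transporters was not tested.

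With DSS, the transporters split into some that rose and some that fell. Leaving *Slc7a9* aside, 5 of the other 9 passed an adjusted p of 0.05 in WT, 2 higher and 3 lower, and 3 passed in KO, all lower. The background was 37.9% of the 16196 genes tested in WT and 45.6% in KO, so 55.6% and 33.3% of the 9 genes are not far from it. *Slc7a5*, *Slc7a11* and *Slc1a5* fell in both genotypes. All 13 epithelium markers rose in both genotypes (median log2 fold change 0.83 in WT and 1.11 in KO), their sum going from 13193 to 18222 CPM without DSS to 28706 to 36076 CPM after it over both genotypes, and the proliferation markers had medians of -0.25 and -0.22, with 3 of 11 and 5 of 11 lower. The part of these shifts in the transporter values was not tested.

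**Figure D3:**
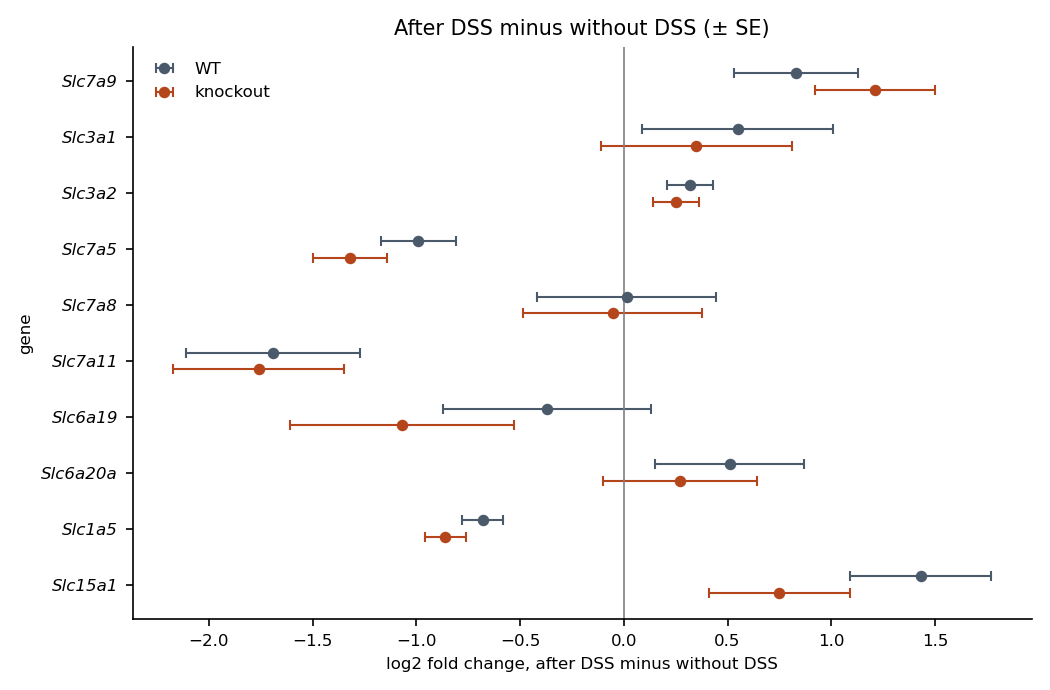
The log2 fold change of mice after DSS minus mice without DSS (horizontal axis, bars are SE) is drawn for each transporter in WT and in KO. The points of *Slc7a5*, *Slc7a11*, *Slc1a5* and *Slc6a19* lie below 0 in both genotypes. Those of *Slc15a1*, *Slc7a9*, *Slc3a1*, *Slc3a2* and *Slc6a20a* lie above it, and *Slc7a8* lies at 0.014 in WT and -0.054 in KO.

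Per length of gene, in CPM per kilobase, the order of levels in WT without DSS was led by *Slc1a5* (80.1 ± 5.48, SD, n = 4), then *Slc3a2* (15.3 ± 1.54), each apart from the next gene. *Slc3a1* (7.01 ± 4.15) and *Slc7a5* (6.95 ± 1.03) overlapped. *Slc15a1* (3.41), *Slc7a8* (1.45), *Slc7a9* (1.14), *Slc6a20a* (0.89), *Slc7a11* (0.511) and *Slc6a19* (0.218) followed, each overlapping the next. In KO after DSS, *Slc7a9* (4.25 ± 0.424, n = 3) had moved up to the 5th place, above *Slc7a5* (2.62 ± 0.28) without overlap, whereas in WT after DSS *Slc7a5* (3.49 ± 0.937, n = 3) still lay above *Slc7a9* (2.03 ± 0.143). The place of *Slc7a9* after DSS is a description, since its values there chose it.

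The balance of light and heavy chain mRNA followed from these levels. The ratio of *Slc7a9* to *Slc3a1*, both per length, was 0.215, 0.204 and 0.186 in the WT mice after DSS and 0.423, 0.406 and 0.417 in the KO mice, a narrow and separate range for each genotype. That separation is a description, because the *Slc7a9* values after DSS chose the gene. Without DSS the ratio spread from 0.0905 to 0.264 in WT and from 0.168 to 0.464 in KO. The ratio of *Slc7a5* to *Slc3a2* was 0.455 ± 0.0408 in WT and 0.432 ± 0.087 in KO without DSS (SD, n = 4 each) and 0.182 ± 0.0378 and 0.143 ± 0.0178 after it (n = 3 each). That of *Slc7a11* to *Slc3a2* went from 0.0326 to 0.00831 in WT and from 0.0543 to 0.0135 in KO. The ratio of *Slc7a8* to *Slc3a2* lay between 0.0769 and 0.0966 in all group means. These ratios describe mRNA and say nothing of the assembled protein.

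**Figure D4:**
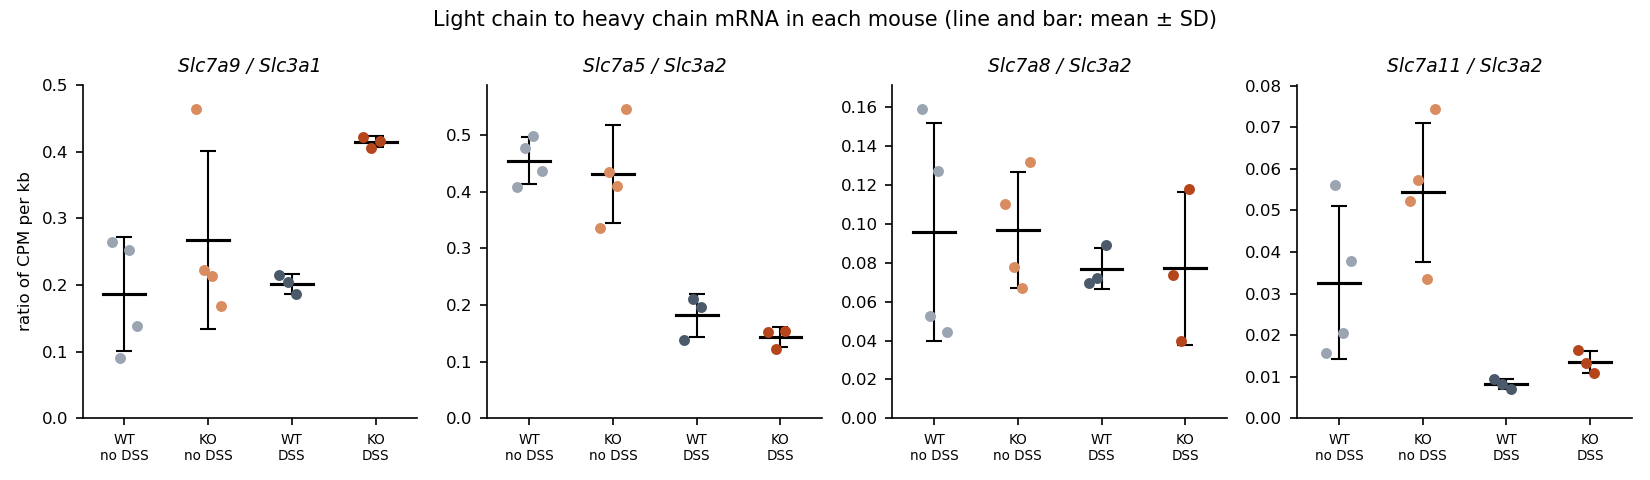
Each panel plots the ratio of a light chain to its heavy chain in CPM per kilobase (linear axis from 0) in each mouse (points), with the mean and SD as lines and bars for the 4 groups. The *Slc7a9* to *Slc3a1* ratio after DSS lies at 0.406 to 0.423 in the KO mice and at 0.186 to 0.215 in the WT mice, a description because *Slc7a9* was chosen by its values there.

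Further transporters of amino acids and peptides were read in the same way. Of 39 further amino acid and peptide transporters, 25 could be tested for DSS, and those that passed were 11 lower and 2 higher in WT (median log2 fold change -0.47), and 14 lower and 3 higher in KO (median -0.39), where all genes had medians of -0.024 and -0.029. The calls made up 13 of 25 in WT and 17 of 25 in KO, against 37.9% and 45.6% of all genes, and 12 and 8 genes passed in neither direction. In both genotypes 10 were lower and 2 were higher. *Slc1a4*, a neutral amino acid exchanger related to *Slc1a5*, fell by 0.99 in WT and by 1.27 in KO on the log2 scale (SE 0.16 each, edgeR adjusted p = 0.00025 and 2.2e-05). *Slc7a6*, a further partner of *Slc3a2*, fell from 23.8 ± 4.26 to 12.2 ± 1.52 CPM in WT (SD, n = 4 and 3, adjusted p = 0.00034) and from 27.0 ± 4.21 to 10.8 ± 0.857 CPM in KO (adjusted p = 1.8e-05). *Slc38a9*, the lysosomal arginine sensor of the mTORC1 pathway, fell by 1.29 and 1.55 (SE 0.21 each, adjusted p = 0.00031 and 4.4e-05), and *Slc43a1*, a carrier of large neutral amino acids, fell by 0.95 in WT (SE 0.23, adjusted p = 0.0052) and 1.89 in KO (SE 0.24, adjusted p = 2.9e-05).

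*Slc6a14*, the broad sodium- and chloride-coupled carrier of the colon, was the abundant exception, rising from 473 ± 117 to 946 ± 18.3 CPM in WT (log2 fold change 1.00, SE 0.17, edgeR adjusted p = 0.00038) and with a log2 fold change of 1.09 (SE 0.17, adjusted p = 0.00011) in KO. *Slc7a7*, named after its values were seen, is the basolateral partner of *Slc3a2* for basic amino acids and rose by 0.62 and 0.77 (SE 0.16 each, adjusted p = 0.0078 and 0.0014). *Slc15a3*, also named after its values were seen and a lysosomal peptide carrier of immune cells, stood at 0.152 and 0.561 CPM in WT without and after DSS (adjusted p = 0.12) and at 0.0959 and 1.04 CPM in KO (adjusted p = 0.0086). It was too low to test without DSS and entered the DSS model through the mice after DSS, so its p supports nothing. The myeloid markers summed to 54.3 to 73.4 CPM without DSS and 90.8 to 164 CPM after it, and their part in this was not tested. Without DSS *Slc43a2* was higher in KO (20.1 ± 4.26 against 12.6 ± 2.65 CPM, edgeR unadjusted p = 0.0053, adjusted p = 1), the only 1 of 24 past the unadjusted cutoff, where 3.67% of all genes passed it. After DSS *Slc1a4* (29.9 ± 4.23 against 39.6 ± 2.08 CPM, unadjusted p = 0.0093) and *Slc38a10* (116 ± 15.6 against 142 ± 5.11 CPM, unadjusted p = 0.023) were lower in KO, 2 of 23 tested where 7.24% of all genes passed that cutoff in edgeR, and neither passed with adjustment (adjusted p = 0.65 each).

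**Figure D5:**
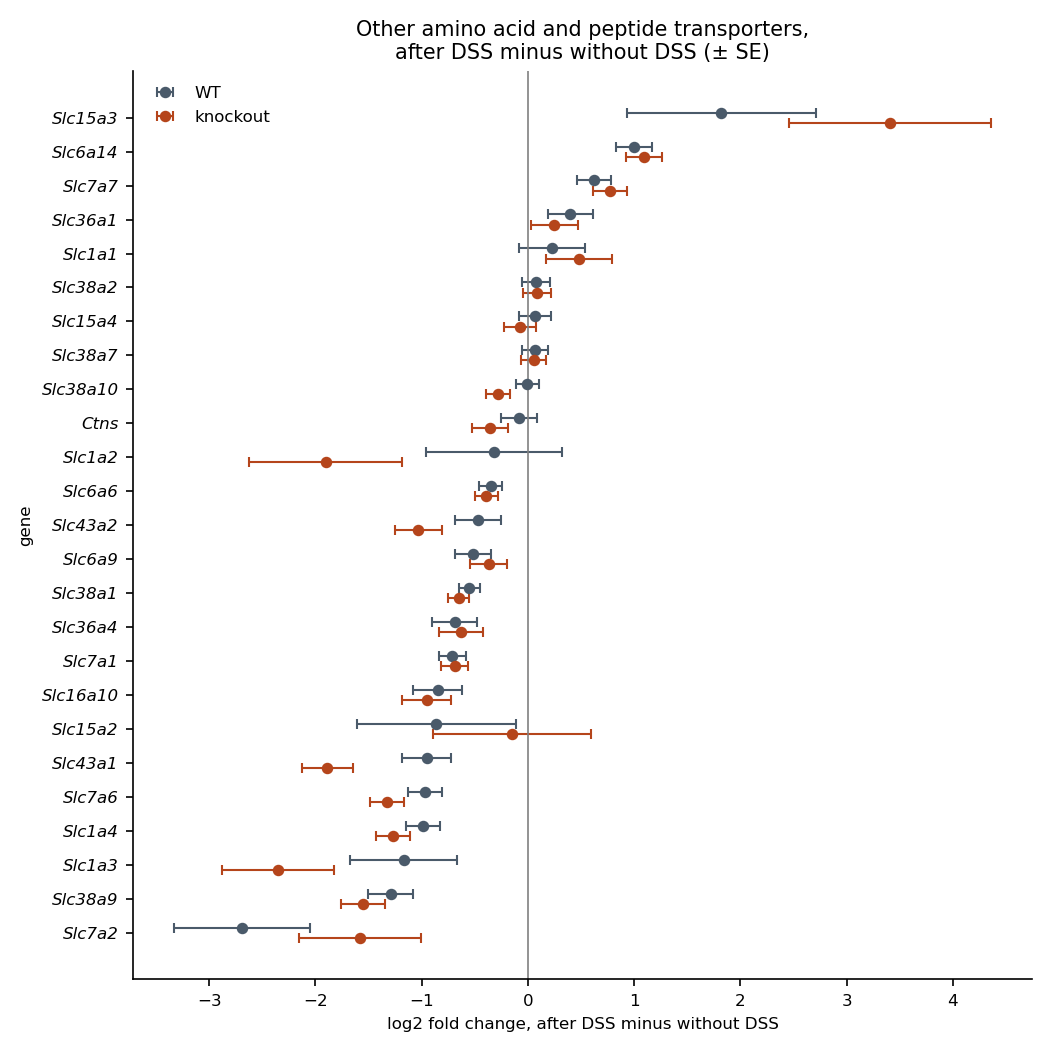
The log2 fold change of mice after DSS minus mice without DSS (horizontal axis, bars are SE) is drawn in WT and KO for the 25 further transporters tested, ordered by their value in WT. *Slc6a14* (1.00 and 1.09) and *Slc7a7* (0.62 and 0.77) lie above 0, and *Slc38a9* (-1.29 and -1.55) and *Slc7a2* lie at the bottom in WT.

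Peptidases and stress programmes linked to these carriers were read in the same way. Among 11 brush border peptidases, which release the peptides and amino acids that the carriers take up, 4 rose and none fell in WT with DSS, and 5 rose and 3 fell in KO, against 37.9% and 45.6% of all genes called in either direction. The meprin subunits *Mep1b* (log2 fold change 1.11 in WT and 1.34 in KO, SE 0.15 each, edgeR adjusted p = 8.9e-05 and 1.1e-05) and *Mep1a* (0.95 and 1.15, SE 0.18 each, adjusted p = 0.00093 and 0.00015) rose in both genotypes. Between genotypes, 1 of 10 peptidases tested was higher and 1 was lower in KO without DSS and 1 was higher after it at an unadjusted p of 0.05, and none passed with adjustment. That cutoff was passed by 3.67% of all genes without DSS and 7.24% after it.

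Among 19 genes of the amino acid response, which *Atf4* drives and to which *Slc7a11* and *Slc7a5* are known to answer, 1 rose and 4 fell with DSS in WT, and 4 rose and 6 fell in KO, beside the same 37.9% and 45.6% of all genes. *Atf3* rose from 8.62 ± 2.42 to 237 ± 147 CPM in WT and from 14.5 ± 7.77 to 466 ± 213 CPM in KO (edgeR adjusted p = 0.00013 and 5.7e-05), while the biosynthetic enzymes *Aldh18a1* (log2 fold change -0.69, SE 0.12, adjusted p = 0.00061) and *Mthfd2* (-0.78, SE 0.21, adjusted p = 0.0098) fell in WT. Between genotypes *Nupr1* was lower in KO without DSS (182 ± 28.4 against 269 ± 34.9 CPM, unadjusted p = 0.0021, adjusted p = 0.88), and *Gpt2*, *Pck2* and *Sesn2* were lower in KO after DSS at unadjusted p of 0.023, 0.027 and 0.048 (adjusted p = 0.65, 0.66 and 0.67), 3 of 18 tested where 7.24% of genes passed. Of the 18, 12 were positive (median 0.05), and the list summed to 989 to 1149 CPM in WT and 1057 to 1556 CPM in KO. That sum includes *Atf3*, at 237 ± 147 CPM in WT and 466 ± 213 CPM in KO after DSS, so it leans on 1 gene. Of 12 genes of the oxidative stress response, which protects the glutathione pool that *Slc7a11* supplies, 5 rose in WT and 6 in KO with DSS and none fell. Of all 16196 genes tested, 3235 rose and 2903 fell in WT, and 3724 rose and 3664 fell in KO. *Srxn1* rose by 0.98 in WT and 1.30 in KO (SE 0.21 each, adjusted p = 0.0025 and 0.00023) and *Txnrd1* by 0.61 and 0.62 (SE 0.10 each, adjusted p = 0.0003 and 0.00015), in the same mice in which *Slc7a11* fell. Between genotypes, 1 of the 12 was lower in KO without DSS and 2 were higher after it at an unadjusted p of 0.05 in edgeR. That cutoff was passed by 3.67% and 7.24% of all genes, and none of the 12 passed with adjustment.

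The genes whose pattern over the 14 mice lay nearest to that of *Slc7a9* were found by the root mean square difference in log2 CPM after centring each gene within each table, over 14148 genes. They were *Gm8242* (0.36), *N4bp2l1* (0.36), *Sowaha* (0.36), *Gm35189* (0.38) and *Rbm3-ps* (0.38), where *Slc7a9* set against a flat line gave 0.57. *N4bp2l1* had 4.48 ± 1.44 CPM in WT and 8.49 ± 1.91 CPM in KO after DSS, and *Sowaha* had 5.53 ± 0.413 and 9.09 ± 1.52 CPM (SD, n = 3 each). These values are a description, because closeness to *Slc7a9* in the same mice chose the genes. None of the 10 transporters or of the 39 further ones was among the 5.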

How the data were processed

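RNA was taken from gut tissue of 14 mice, with 4 WT and 4 KO mice without DSS and 3 and 3 after it. Libraries were made with a directional kit. The deposited raw count tables give reads per gene for each mouse, and the authors' FPKM values stand beside them. HISAT2 and DESeq2 are named in the submitters' processing notes. The counting tool, strand setting, genome build and filters are not given in the sources used here, so reads of overlapping or antisense genes could not be told apart. Gene positions matched GENCODE vM21 on GRCm38. The study left out 1 WT and 1 KO sample. The columns of the DSS table carry a group but no label number, and 6 of its FPKM columns were not used. Entries without a gene name held 0.25% and 0.133% of reads.

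Counts were analysed in edgeR 4.0.16 (R 4.3.3) with filterByExpr (minimum count 10, minimum total 15), TMM scaling and the robust quasi-likelihood test, and p-values were adjusted by Benjamini-Hochberg over all genes tested. Genotype was compared within each table. DSS was compared over the 54189 gene identifiers in both tables (52631 with the same length), with 1 model of 4 groups. The cutoff was 0.05, unadjusted as in the study and adjusted. CPM were set on 1 TMM scaling over the 14 mice, and overlap of genotypes for single genes was read from them. The counts and shares of genes without overlap were read from CPM scaled within the mice without DSS or within those after it. All 10 transporters passed the filter. The tests were tried on simulated data. Alternatives were DESeq2 1.42.0, other scaling, other filters, limma 3.58.1 on the deposited FPKM (pseudocounts 1 and 0.1, mean FPKM of at least 0.1), a replicate block, other sets of mice and leaving out each mouse. The transporters and all gene lists were chosen with earlier results of these data known. Genes named were the 10 transporters, up to 4 genes with the smallest p per list and comparison, and the 5 nearest to *Slc7a9*. The study's methods state age- and sex-matched littermates unless noted otherwise, and no label ties a mouse to a litter. Some items that this rule would name are not reported here.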

Additional observations from a re-analysis of the deposited data

Results flagged for a closer look

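*Slc1a5* in WT without DSS had 1 mouse, mouse 2 at 300 CPM, that stood below the other 3 (343 to 347 CPM), and its gap took up a 0.912 share of the range of the group, above Dixon's critical value for 4 mice. Such a gap turns up by chance in about 1 group in 20. Leaving out each mouse in turn gave log2 fold changes of -0.19 to -0.072 between genotypes without DSS and of -0.73 to -0.66 for DSS in WT.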

How the results depend on the processing

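Depth limited the low genes most: *Slc6a19* rested on 6 to 31 reads per mouse, and the small groups leave differences within 2 SE undecided. The fall of *Slc7a5*, *Slc7a11* and *Slc1a5* with DSS held under every alternative run in both genotypes. Values given as ranges come from leaving out each mouse in turn. The causes of the differences between settings were not tested.

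Without DSS, genes past an unadjusted p of 0.05 numbered 566, and 1099 with no filter on low counts, where mice left out gave 479 to 692. Genes past an adjusted p numbered 3, with 21 in DESeq2, 11 with no filter, 0 with at least 10 reads in every mouse (a stricter filter that tests fewer genes), 0 among protein-coding genes and 6 in limma on log2(FPKM + 0.1), and 3 to 5 over the mice left out. Of the transporters, 0 passed an unadjusted p in the main test, 1 with no filter, 1 with all 14 mice in 1 model and 0 to 2 over the mice left out. The replicate block gave 3, *Slc7a9* (log2 fold change 0.74), *Slc7a11* (0.86) and *Slc15a1* (0.42), with unadjusted p of 0.023, 0.020 and 0.049 in edgeR. With the block, 543 of the 15441 genes tested passed that cutoff. The correlations of deviations between mice of the same number were -0.03, 0.149, -0.194 and -0.127. They cannot decide whether mice of the same number were littermates. No label ties a number to a litter, although the methods state littermates. No paired analysis was possible because the DSS columns carry no label number, for the comparison after DSS.

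After DSS, genes past an unadjusted p numbered 1080, with 1819 under no filter and 483 to 2530 over the mice left out (483 without KO mouse 2, 592 without KO mouse 1 and 2530 without KO mouse 3). Genes past an adjusted p numbered 2, with 54 in DESeq2, 46 with no filter, 0 with the stricter filter, 0 among protein-coding genes and 0 to 93 over the mice left out (93 without KO mouse 3).

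Signs turned only for transporters whose log2 fold change was near 0 or rested on 1 mouse. Without DSS these were *Slc6a19*, at 0.06 with the block, 0.0015 on log2(FPKM + 1) and 0.05 on log2(FPKM + 0.1), and over the mice left out *Slc6a19* (-0.29 to 0.21), *Slc3a1* (-0.29 to 0.70), *Slc3a2* (-0.032 to 0.08), *Slc7a5* (-0.15 to 0.012) and *Slc7a8* (-0.24 to 0.41). With DSS in WT, *Slc7a8* was -0.034 with the stricter filter, -0.042 among protein-coding genes and -0.029 in the 7 WT mice alone, and ran from -0.24 to 0.38 over the mice left out, as *Slc6a19* did from -0.77 to 0.0081. Between genotypes after DSS, mice left out gave -0.62 to 0.046 for *Slc15a1*, -0.061 to 0.14 for *Slc3a1*, -0.1 to 0.014 for *Slc3a2* and -0.55 to 0.24 for *Slc7a8*. With DSS in KO, *Slc7a8* ran from -0.55 to 0.25 and *Slc6a20a* from -0.21 to 0.52.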

Other observations

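Several markers of hormone-making enteroendocrine cells read lower in KO without DSS. There all 7 had negative log2 fold changes (median -0.63), 4 of them past an unadjusted p of 0.05, which 3.67% of all genes passed. *Chga* stood at 32.6 ± 3.45 CPM in KO and 61.9 ± 9.97 CPM in WT (SD, n = 4 each, edgeR unadjusted p = 2.5e-05, adjusted p = 0.097), and *Chgb* at 52.5 ± 8.25 and 98.3 ± 19.6 CPM (adjusted p = 0.37). After DSS 2 of the 7 were positive (median -0.19), and 2 were lower at unadjusted p, which 7.24% of all genes passed: *Pyy* (46.6 ± 6.39 against 70.1 ± 9.27 CPM) and *Chga* (42.6 ± 7.91 against 57.9 ± 8.58 CPM, n = 3 each), with adjusted p = 0.65 each. Enteroendocrine sums were 204 to 282 CPM in WT and 109 to 163 CPM in KO without DSS, and 239 to 274 and 175 to 227 CPM after it.

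The remaining lists of cell type markers held at most 1 genotype call each in a comparison. At unadjusted p, which 3.67% of all genes passed without DSS and 7.24% after it, goblet cell markers held 1 of 6 without DSS and 0 of 6 after it, B and plasma cell markers 1 of 7 and 1 of 5, and stroma markers 1 of 7 each time. Colon and small intestine markers held none, and no gene of these 5 lists passed with adjustment in edgeR. With DSS, 37.9% of all genes were called in WT and 45.6% in KO in either direction. Of the 16196 genes tested, 3235 were called higher in WT and 3724 in KO. Among colon markers 5 of 9 rose in WT and 3 of 9 in KO. In each genotype 4 of 10 small intestine markers rose, among them *Fabp2* from 198 ± 44.5 to 343 ± 99.6 CPM in WT (edgeR adjusted p = 0.013). Goblet cell markers split, with 3 higher and 2 lower in WT and 3 higher and 3 lower in KO. With DSS 3 of 7 B and plasma cell markers were lower in KO and 0 of 7 passed in WT, at unadjusted p too, and stroma markers held 1 higher and 1 lower in each genotype.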
